A study of Homo sapiens with 30 samples.

Results

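The first response to wild type p53 was read from 6 of 30 RNA-seq libraries: the 3 labelled wild type p53 and the 3 labelled pGFP that were collected 6 h after transfection. All genes with enough reads were compared between them, 21335 of the 39359 genes in the deposited table. The cells were H1299, a human lung carcinoma line that is p53-null on both alleles. They were transiently transfected with a plasmid in which a tetracycline-responsive TRE-tight promoter drives *GFP*, and, in the p53 plasmids, a separate promoter of the same kind drives the p53 insert. The pGFP plasmid has no such insert and serves as the control, and neither of these groups received *O*6-benzylguanine, the inhibitor used elsewhere in the study. In each culture the cells that carried GFP were sorted before RNA was taken, so the values describe transfected cells alone. The 24 other libraries hold the same groups at 24 h, the R248W (RW) mutant p53 at both times, and a p53 plasmid carrying the DNA lesion *O*6-methylguanine, with or without the inhibitor. The RW libraries at 6 h are given beside the results as a control that makes a p53 protein with a changed DNA-binding domain.

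The p53 protein is a transcription factor that binds, as a tetramer, to sites built of a pair of short repeated half-sites, and it raises transcription of nearby genes. Known targets halt the cell cycle, open the mitochondrial and death-receptor routes to apoptosis, aid DNA repair, restrain growth signalling, change metabolism, and limit p53 itself. Repression by p53 is mostly described as indirect, by way of *CDKN1A* (p21) and its action on cell cycle genes.

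The 6 libraries held from 46752114 to 71950532 counted reads. The most deeply read library was wild type p53 replicate 3, in which the median rise was also the largest (below). Mitochondrial transcripts took 0.1708% to 0.3508% of reads in pGFP and 0.2205% to 0.4283% in wild type p53, with replicate 3 the highest in each group, and the part of this spread in the results was not tested. The markers of the line were at similar levels on both sides, with *VIM* at 2790 to 3020 CPM (counted reads scaled to a common library total), *KRT18* at 563 to 640.1 CPM and *CDH2* at 54.1 to 59.2 CPM. Of the epithelial markers, *KRT19* held at most 4 reads and *EPCAM* at most 15 reads in any of the 6 libraries. Markers of other cells were absent or sparsely read. *PTPRC* and *SFTPB* had no read, *COL1A2* and *SFTPC* at most 3 and *CDH5* at most 4. More reads were held by *PDGFRB* (at most 48 in a library), *COL1A1* (28), *NKX2-1* (27), *CD14* (15), *VWF* (10) and *PECAM1* (8). The exception was *HBB*, listed at 378 to 583 CPM in these 6 libraries while *HBA1* held at most 1 read. It did not pass the test and its source was not tested.

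All levels that follow are CPM after TMM scaling. Where values are listed by group they are those of replicates 1, 2 and 3 in turn.

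Nearly all DEGs of wild type p53 at 6 h were higher than in pGFP. Of 21335 genes tested, 937 (4.39%) were at least 2-fold higher and 20 (0.0937%) at least 2-fold lower, each with an adjusted *P* below 0.05 by quasi-likelihood in edgeR, with *P* adjusted after Benjamini and Hochberg. Genes of this kind are called DEGs, and "rose" or "fell" is used of genes with an adjusted *P* below 0.05. Without the fold limit, 1852 genes (8.68%) rose and 339 (1.59%) fell. In 935 of the 937 raised DEGs and in all 20 lowered ones the 3 wild type libraries lay entirely beyond the 3 pGFP libraries, as they did, upward, in 20% of all genes tested and, downward, in 11.5%. RW mutant p53 against the same pGFP libraries gave 1 DEG (0.00469%) and 218 genes (1.02%) at an unadjusted *P* below 0.05. With the replicate number as a block, the lowered DEGs were 50 and the raised ones 1079, and without the fold limit 2950 genes rose and 1067 fell. The lowered DEGs numbered 12 without wild type replicate 1, 31 without wild type replicate 3 and 13 without pGFP replicate 3. With DESeq2's Wald test 1713 genes rose and 635 fell without the fold limit, so that rises were 73% of the calls against 84.5% in edgeR. With the compared libraries alone in edgeR, 2346 rose and 1219 fell, and rises were 65.8% of the calls. The study's methods describe the replicates as biological. The *P* values rest on a spread that all groups of the 28 fitted libraries share, those at 24 h included, and not on the 6 compared libraries alone.

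**Figure D1:**
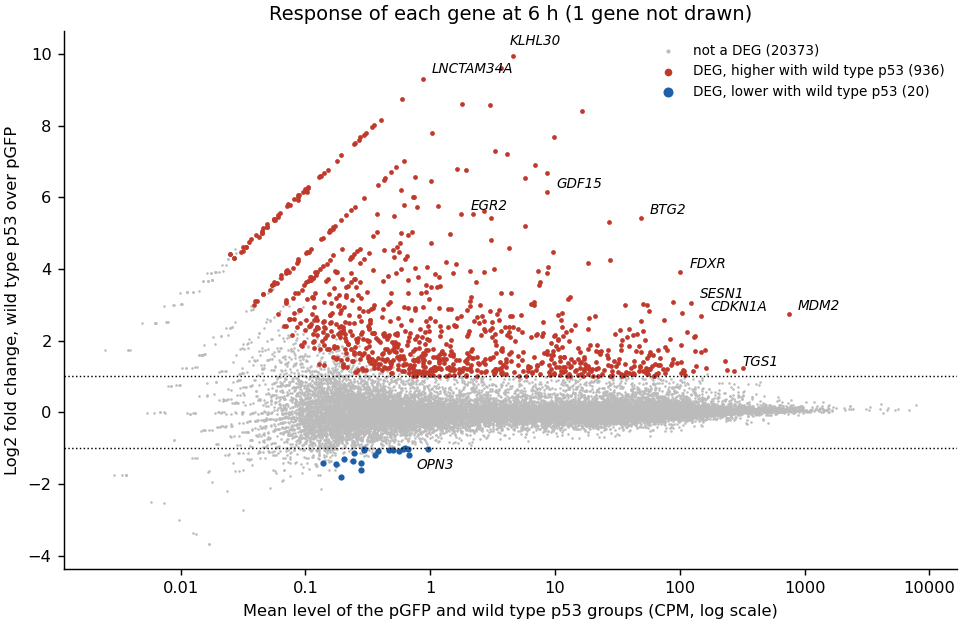
Each point is a gene. The horizontal axis is the mean level of the 2 groups in CPM on a log scale and the vertical axis the fitted log2 fold change of wild type p53 over pGFP at 6 h, with dotted lines at 2-fold. The raised DEGs are red, all but 1 of the 937 being drawn, and spread over the whole range of levels, the 20 lowered DEGs are blue and all lie below 1 CPM, and 5 genes at 0 in all 6 libraries are not drawn. Fitted values of genes with almost no pGFP reads depend on a small added count.

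Low and silent genes made up much of the response. Among genes with a mean level under 1 CPM 6.62% were raised DEGs, against 6.06% at 1 to 10 CPM, 2.37% at 10 to 100 CPM and 0.965% above 100 CPM. In 234 of the raised DEGs each pGFP library held at most 3 reads, which was so for 653 tested genes, and 35.8% of those 653 were raised against 3.4% of the other 20682. Such genes passed the filter on low counts only through the groups where they are high, so these shares describe these libraries and are not a test. Over the 703 raised DEGs with more than 3 reads in a pGFP library the median rise was 3.16-fold (log2 1.66). Of these, 259 rose at least 4-fold, 77 at least 8-fold and 17 at least 32-fold. The medians of the single wild type libraries were 1.56, 1.56 and 1.77 on the log2 scale. In 698 of the 703 the mean of the RW mutant libraries lay below all 3 wild type libraries. The 703 were chosen for high wild type levels and the same count was not made over all genes, so it is no test. Together the lowered DEGs lost 6.19 CPM. Protein-coding genes gave 690 of the raised DEGs (4.77% of those tested), long non-coding RNAs 155 (4.27%) and pseudogenes 59 (2.57%).

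The rises with the smallest *P* spanned several roles. *BTG2* (ENSG00000159388.5, chromosome 1, 203305491 to 203309602), an antiproliferative regulator of transcription and mRNA decay, went from 2.22, 2.18 and 2.26 CPM to 102, 93.4 and 89.9 CPM, and stayed at 2.43, 2.61 and 2.75 CPM in RW mutant p53. The rise was 42.8-fold (log2 fold change 5.42 ± 0.17, adjusted *P* = 2.4e-17), where ± marks the SE and n was 3 per group. *GDF15* (ENSG00000130513.6, chromosome 19, 18374731 to 18389176), a secreted factor of the TGF-beta family that signals stress, moved from 0.285, 0.242 and 0.193 CPM to 18.2, 15.6 and 17.5 CPM, or 71-fold (log2 fold change 6.15 ± 0.23, adjusted *P* = 7.8e-16). For both genes every wild type library lay above every pGFP library, which the choice of genes named by rank required.

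*SESN1* (ENSG00000080546.13, chromosome 6, 108984309 to 109094846), a sestrin that restrains mTORC1, was at 27.9, 25.7 and 26.5 CPM in pGFP and 226, 226 and 207 CPM with wild type p53 (log2 fold change 3.04 ± 0.13, adjusted *P* = 1.4e-14). *FDXR* (ENSG00000161513.11, chromosome 17, 74862497 to 74873031), the mitochondrial ferredoxin reductase, was at 13.1, 12.1 and 12.4 CPM and 197, 181 and 192 CPM (log2 fold change 3.92 ± 0.20, adjusted *P* = 3.6e-13). *BBC3*, which encodes the BH3-only protein PUMA, was at 1.16, 0.945 and 1.28 CPM and 14.4, 12.9 and 15 CPM (log2 fold change 3.63 ± 0.19, adjusted *P* = 6.1e-13). Genes named by rank were taken only from DEGs whose groups did not overlap, so that separation is not a further result.

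Genes of heart development, coenzyme A synthesis and RNA processing stood among the 10 smallest *P*. Whether they are known p53 targets was not examined. *NKX2-5* (ENSG00000183072.9, chromosome 5, 173232109 to 173235311), a homeobox factor of heart development, was at 3.12, 2.81 and 2.77 CPM in pGFP and 20.5, 19.4 and 19.8 CPM in wild type p53 (log2 fold change 2.78 ± 0.13, adjusted *P* = 9.7e-14). *PANK1*, a pantothenate kinase that starts coenzyme A synthesis, was at 7.84, 8.68 and 7.96 CPM and 64.4, 62.7 and 66.6 CPM (log2 fold change 2.99 ± 0.14, adjusted *P* = 9.7e-14). *CLP1*, an RNA kinase of the pre-mRNA cleavage complex, was at 24.7, 22.5 and 22.6 CPM and 80.2, 73.7 and 69 CPM (log2 fold change 1.67 ± 0.09, adjusted *P* = 1.1e-12). The RW mutant libraries of these 3 genes lay between 2.56 and 2.59 CPM, 8.07 and 8.28 CPM, and 21.6 and 22.7 CPM.

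Measured as reads gained rather than as fold, raised DEGs with large gains were *MDM2*, *CDKN1A*, *EPHA2*, *AGRN*, *TGS1*, *SESN1*, *GXYLT1* and *FDXR*. *AGRN*, the matrix proteoglycan agrin, was at 129, 134 and 111 CPM in pGFP and 331, 332 and 336 CPM with wild type p53. *TGS1*, which makes the trimethylguanosine cap of small nuclear RNAs, was at 171, 169 and 168 CPM and 384, 366 and 366 CPM. *GXYLT1*, a xylosyltransferase that modifies glucose on Notch, was at 140.1, 147 and 151 CPM and 358, 322 and 308 CPM. These 3 abundant genes rose by only 2.67-, 2.2- and 2.26-fold.

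The miR-34a locus on chromosome 1 gave one of the largest rises. *MIR34AHG* (ENSG00000228526.6, chromosome 1, 9148011 to 9198906), the host transcript of the microRNA miR-34a, was at 0.102, 0.0879 and 0.0876 CPM in pGFP, 0.0801, 0.15 and 0.0593 CPM in RW mutant p53 and 33.2, 29.9 and 34.8 CPM in wild type p53 (log2 fold change 8.42 ± 0.44, adjusted *P* = 7.7e-13). *LNCTAM34A* (ENSG00000234546.3, chromosome 1, 9182004 to 9196284), a long non-coding RNA of the opposite strand that overlaps it, had no read in pGFP and 78, 63 and 133 reads with wild type p53, or at least 29.3-fold more when each pGFP library is set at 3 reads. Such bounds use 3 reads per library throughout. Whether reads were counted by strand is not given in the sources used here, so reads of the 2 overlapping genes may not be told apart. The mature microRNA itself is not measured by these libraries. Its sequence is shown because it is the known product of the raised host transcript (RefSeq, GRCh38.p14, chromosome 1, 9151735 to 9151756, minus strand), with the seed in capitals.

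miR-34a-5p: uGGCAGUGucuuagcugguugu

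The window from 250 bases before to 50 bases after the start of *LNCTAM34A* (RefSeq, GRCh38.p14, chr1:9181954-9182253, plus strand) follows. Capitals mark a pair of adjoining p53 half-sites with no mismatch to the consensus, whose first base lies at −60 from the RefSeq start. The gene start given above, from GENCODE v44, lies upstream of this pair, so by that annotation the pair is within the gene.

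LNCTAM34A window: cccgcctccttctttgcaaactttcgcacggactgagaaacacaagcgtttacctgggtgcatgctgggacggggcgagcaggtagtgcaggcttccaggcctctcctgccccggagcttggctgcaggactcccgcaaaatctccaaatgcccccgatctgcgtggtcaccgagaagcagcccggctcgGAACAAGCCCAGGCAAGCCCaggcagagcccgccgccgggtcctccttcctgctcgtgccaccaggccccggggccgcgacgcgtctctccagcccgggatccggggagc

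Half-sites of p53, each 10 bases, were searched in windows of this kind for the 12918 tested genes with a RefSeq entry, 550 of them raised DEGs. The half-site consensus is its own reverse complement, so 1 search reads both strands. At least 1 half-site without mismatch was present in 9.82% of the raised DEGs, in 12.1% of those raised at least 4-fold, and in 5.33% of all windows. A pair of adjoining half-sites with both central cores intact and at most 2 mismatches elsewhere was present in 7 of the 550 (1.27%) and in 16 of all 12918 (0.124%). These shares describe the windows, and binding was not measured.

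The 7 pairs, chosen by the search and not by their expression beyond being raised DEGs, are shown with the pair in capitals and up to 5 bases on either side, to let the promoters of genes described here be compared. All are from RefSeq, GRCh38.p14, and read along the strand of the gene. Their windows lie at chr1:9181954-9182253 (*LNCTAM34A*), chr9:214615-214914 (*DOCK8*), chr1:1421227-1421526 (*ANKRD65*), chr12:56488112-56488411 (*GLS2*), chr10:88991288-88991587 (*ACTA2*), chr3:149792505-149792804 (*ANKUB1*) and chr15:88621090-88621389 (*AEN*).
LNCTAM34A: gctcgGAACAAGCCCAGGCAAGCCCaggca
DOCK8: ggtttGCGCTTGGCTGGGCATGTTCcgcgg
ANKRD65: tccacAAGCATGTTCCTGCTTGTCCtcccc
GLS2: gccggAGGCTTGCTGGGGCATGCGCt
ACTA2: tggctTGGCTTGTCAGGGCTTGTCCaggag
ANKUB1: gcttgAAGCTTGTCCATACTTGCCTcaacc
AEN: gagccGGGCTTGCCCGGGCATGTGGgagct

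The pair in *LNCTAM34A* had 0 mismatches, that in *ANKUB1* 1 and the others 2 each. Relative to the RefSeq start site their first bases lay at −60 in *LNCTAM34A*, −225 in *ANKRD65*, −121 in *ANKUB1* and −34 in *AEN*. They lay at 10, 15 and 30 within the transcripts of *ACTA2*, *DOCK8* and *GLS2*. The rises of *AEN*, *ACTA2* and *GLS2* were 1.74, 3.23 and 4.49 on the log2 scale. In pGFP the mean levels of *DOCK8*, *ANKRD65* and *ANKUB1* lay under that of 3 reads, so no fold is given for them.

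Other genes with more than 3 reads in a pGFP library also rose steeply. Their pGFP levels rest on few reads, so the folds below are imprecise. *TP53I11*, a p53-inducible gene that overlaps the raised *TSPAN18* on the opposite strand, was at 0.0204, 0.176 and 0.0876 CPM in pGFP and 16.4, 16.9 and 24.9 CPM with wild type p53. *DRAXIN*, a secreted guidance protein of commissural axons, was at 0.183, 0.0659 and 0.0876 CPM and 11.3, 13.4 and 16.7 CPM. *HES2*, a basic helix-loop-helix repressor, was at 0.204, 0.0879 and 0.193 CPM and 15.4, 16.1 and 19.4 CPM. The log2 fold changes were 7.68 ± 0.55, 6.91 ± 0.46 and 6.67 ± 0.46. The voltage-gated potassium channel subunit *KCNS2* and the NMDA receptor subunit *GRIN2C* belonged to the same class, with 7.28 ± 0.55 and 5.63 ± 0.55, as did *GRIP2*, a scaffold of glutamate receptors, with 5.75 ± 0.62. Each of the 3 was below 0.13 CPM in every pGFP library.

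Among genes nearly silent in pGFP, the largest bounds belonged to *KLHL30* (ENSG00000168427.8, chromosome 2, 238138668 to 238152947), with 0, 0 and 1 reads in pGFP and 348, 360 and 765 with wild type p53. That is at least 155-fold more. *EPPK1*, the cytolinker epiplakin, had 3, 3 and 2 reads and 304, 359 and 625 reads, or at least 137-fold more. *NSG1*, a neuronal endosomal protein, and *PHLDA3*, an inhibitor of AKT, rose at least 123- and 101-fold. The 6 next bounds ran from 64.6 for the Wnt antagonist *SFRP4* to 29.3 for *LNCTAM34A*, and included the riboflavin transporter *SLC52A1* (53.9), the inositol phosphatase *INPP5D* (34.6), the mucin *MUC19* (60.3) and the guidance molecule *RGMA* (33.3).

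Known targets were examined together with other pathways, such as glycolysis, heat shock and ribosomal proteins. The 27 pathway lists, written with earlier results of these data known, held 511 genes, of which 482 were tested. Of these, 80 were raised DEGs, against 4.39% of all genes tested, and none was a lowered DEG by edgeR. At an unadjusted *P* below 0.05, 155 were above and 23 below pGFP, where 14.2% of all genes were above and 5.13% below, so the members below were near the share of all genes. DESeq2 gave 78 and 1. The median log2 fold change of the list members was 0.09, against 0.021 over all genes tested. The counts and medians of single lists below are to be read against 4.39% and 0.021.

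In the feedback genes 2 of 8 were raised DEGs, with a list median of 0.09. *MDM2* (ENSG00000135679.22, chromosome 12, 68808177 to 68845544), the ubiquitin ligase that marks p53 for degradation, whose annotation overlaps ENSG00000256325 on the same strand, was at 188, 183 and 209.6 CPM in pGFP, 188, 189 and 204 CPM in RW mutant p53 and 1296, 1248 and 1370 CPM in wild type p53. That was 6.74-fold (log2 fold change 2.75 ± 0.16, adjusted *P* = 3.2e-12). *PPM1D*, the phosphatase WIP1 that shuts down the DNA damage response, was at 25.1, 24.3 and 25 CPM and 62.8, 61.6 and 59.2 CPM (log2 fold change 1.30 ± 0.10, adjusted *P* = 5.4e-10). The cyclin *CCNG1* rose by less than 2-fold (log2 fold change 0.50 ± 0.10, adjusted *P* = 0.00095), from a mean of 337 to 478 CPM.

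Of the 19 tested genes of cell cycle arrest, 8 were raised DEGs, none fell by edgeR or at an unadjusted *P* below 0.05, and the median was 0.21. *CDKN1A* (ENSG00000124762.13, chromosome 6, 36676460 to 36687337), the CDK inhibitor p21, was at 42.5, 34.3 and 43.9 CPM in pGFP, 42.9, 37.6 and 46.7 CPM in RW mutant p53 and 262, 244 and 264 CPM in wild type p53 (log2 fold change 2.67 ± 0.16, adjusted *P* = 1e-11). *PLK3* and *PLK2*, stress-responsive kinases of the polo family, rose 3.23- and 4.36-fold. *PLK3* was at 7.58, 7.43 and 7.66 CPM against 26.2, 22.6 and 24.6 CPM. *GADD45A*, a sensor of genotoxic stress, rose 3.29-fold and *RPRM*, a G2 arrest factor, 2.64-fold.

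Transcripts of some genes of both routes to apoptosis had risen by 6 h, and apoptosis was not measured. On the intrinsic route 6 of 25 tested genes were raised DEGs, 12 rose without the fold limit and the median was 0.21. *APAF1*, the scaffold of the apoptosome, was at 39.1, 36.7 and 43 CPM in pGFP and 178, 183 and 202 CPM with wild type p53 (log2 fold change 2.25 ± 0.20, adjusted *P* = 6.8e-09). *BAX*, a pore-forming effector of mitochondrial permeabilization, was at 27.9, 27.9 and 28.3 CPM and 57, 56.1 and 61.5 CPM (log2 fold change 1.05 ± 0.10, adjusted *P* = 1.2e-08). Its relative *BAK1* rose 2.37-fold, the nuclease *AEN* 3.33-fold and the executioner *CASP6* 2.29-fold. The BH3-only genes *PMAIP1* (NOXA) and *BCL2L11* (BIM) rose by just under 2-fold, by 0.94 ± 0.16 and 0.97 ± 0.28 on the log2 scale.

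Death receptor signalling had 6 raised DEGs of 15 and a median of 0.67. *TNFRSF10B*, the TRAIL receptor DR5, whose annotation overlaps the opposite-strand ENSG00000246130, was at 73.3, 69.2 and 69.5 CPM in pGFP and 229, 229 and 220.0 CPM with wild type p53 (log2 fold change 1.68 ± 0.10, adjusted *P* = 4.4e-12). *TNFRSF10D*, a decoy receptor of the same ligand, rose by the near-equal factor of 3.25, and *TNFRSF10A* (DR4) rose 2.15-fold. *FAS* (ENSG00000026103.21, chromosome 10, 88953813 to 89029605) was at 13.7, 12.1 and 13.4 CPM and 66.3, 65.1 and 64.1 CPM (log2 fold change 2.32 ± 0.15, adjusted *P* = 2.9e-11). The adaptor *PIDD1* rose 4.83-fold and the initiator caspase *CASP10* 4.27-fold, the latter from below 0.09 CPM. *TNFSF10*, the ligand TRAIL itself, did not pass the test (log2 fold change 1.41 ± 1.17, adjusted *P* = 0.63).

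DNA repair held 3 raised DEGs among 30 tested, against 4.39% of all genes tested. Its median was 0.07, against 0.021 over all genes. *DDB2*, which recognises ultraviolet lesions in chromatin, was at 29, 27.2 and 26.6 CPM in pGFP and 88.8, 85.4 and 91.3 CPM with wild type p53 (log2 fold change 1.68 ± 0.10, adjusted *P* = 8.6e-12). *XPC*, its partner in nucleotide excision repair, was at 34.6, 33 and 35.7 CPM and 80.9, 75.2 and 81.8 CPM, a 2.3-fold rise (adjusted *P* = 4.5e-10). *POLH*, the translesion polymerase eta, rose 4.25-fold. A further 6 genes rose by under 2-fold, among them *RRM2B*, the p53-linked subunit of ribonucleotide reductase (0.81 ± 0.13), and *PCNA*, the sliding clamp (0.57 ± 0.10).

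Restraint of mTOR and autophagy had 5 raised DEGs of 22. Beside *SESN1*, *SESN2* was at 31.6, 29.9 and 31 CPM in pGFP and 103, 103 and 101 CPM with wild type p53 (log2 fold change 1.73 ± 0.10, adjusted *P* = 3.6e-12). *DDIT4* (REDD1), another inhibitor of mTORC1, rose 3.64-fold. The AMPK subunit *PRKAB1* rose 2.3-fold and *DRAM1*, a lysosomal inducer of autophagy, 3.33-fold, while the autophagy kinase *ULK1* rose by under 2-fold (0.80 ± 0.15). The list median was 0.05.

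Redox and mitochondrial metabolism held 6 raised DEGs of 20, with a median of 0.08. *TP53I3*, a quinone oxidoreductase, was at 19.6, 17.8 and 18.3 CPM in pGFP and 152, 152 and 168 CPM with wild type p53 (log2 fold change 3.08 ± 0.17, adjusted *P* = 2.6e-12). *TIGAR*, a phosphatase that diverts glucose from glycolysis, was at 45, 43 and 43.9 CPM and 161, 169 and 156 CPM (log2 fold change 1.88 ± 0.12, adjusted *P* = 1.9e-11). *GLS2*, the p53-linked glutaminase, was at 0.795, 0.879 and 0.789 CPM and 17.1, 17.2 and 20.9 CPM (log2 fold change 4.49 ± 0.34, adjusted *P* = 3.9e-10). *TP53INP1*, a stress protein of autophagy and redox control, rose 7.97-fold and the ceramidase *ACER2* 5.04-fold. *CPT1C*, a carnitine palmitoyltransferase, was the list member with the lowest value (-1.10 ± 0.38, adjusted *P* = 0.065 in edgeR), and DESeq2 called it a lowered DEG.

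The other p53 effectors moved most as a list: 9 of 13 tested members were raised DEGs and the median was 1.68. *RPS27L*, a ribosomal-like protein, was at 29.9, 30.7 and 29.8 CPM in pGFP and 92.9, 92.4 and 87.1 CPM with wild type p53. *TRIAP1*, a small inhibitor of apoptosis, rose 2.5-fold, *NINJ1*, which executes membrane rupture, 2.84-fold, and the repressor *HIC1* 5.1-fold. The tumour suppressor serpin *SERPINB5* did not pass the test (adjusted *P* = 0.12).

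Transcripts of some secreted signals rose by 6 h, and secretion was not measured. Of 23 tested growth factors and cytokines 6 were raised DEGs, against 4.39% of all genes tested. *CSF1*, the macrophage growth factor, was at 1.18, 1.23 and 1.56 CPM in pGFP and 4.62, 4.79 and 6.3 CPM with wild type p53 (log2 fold change 1.98 ± 0.22, adjusted *P* = 3.1e-07). *KITLG*, the ligand of KIT, was at 20.7, 19.6 and 20.6 CPM and 70.5, 76.1 and 72.8 CPM (log2 fold change 1.85 ± 0.21, adjusted *P* = 5.1e-07). *LIF* rose 3.98-fold, *IL11* 2.75-fold and *PDGFB* 2.14-fold, the last without a call when the 2 libraries with conflicting titles were added to the fit (adjusted *P* = 0.0538).

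Of 25 receptor tyrosine kinases 4 were raised DEGs, against 4.39% of all genes tested. *EPHA2*, an ephrin receptor, was at 204, 194 and 180.5 CPM in pGFP and 481, 445 and 433 CPM with wild type p53 (log2 fold change 1.23 ± 0.13, adjusted *P* = 7.6e-08). *FGFR3* rose 3.8-fold. *PDGFRB* was at 0.143, 0.11 and 0.193 CPM and 0.66, 0.71 and 0.712 CPM (log2 fold change 2.18 ± 0.43, adjusted *P* = 0.00081), and as it is also a fibroblast marker the others of that list are given: *COL1A1* lay at 0.252 to 0.449 CPM before scaling in these 6 libraries and *COL3A1* held at most 1 read. *RET* rose at least 7.68-fold from near silence, and *EPHB4* by just under 2-fold (0.95 ± 0.11).

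Other signalling lists held 1 or 2 raised DEGs each, to be read against 4.39% of all genes tested. *EGR2* was at 0.0815, 0.0659 and 0.0701 CPM in pGFP and 3.16, 3.3 and 4 CPM with wild type p53 (log2 fold change 5.54 ± 0.43, adjusted *P* = 6.9e-10), and *ARC* rose 3-fold, so 2 of 23 immediate early genes were raised DEGs. *SPRY1*, a brake on ERK signalling, was at 2.49, 2.2 and 2.91 CPM and 21.9, 22 and 24.4 CPM (log2 fold change 3.16 ± 0.19, adjusted *P* = 8.6e-12) and was the only DEG of 13 in its list. *IRF1*, an interferon-related factor, was at 14, 13.3 and 13.4 CPM and 56.4, 55.6 and 53.5 CPM (log2 fold change 2.02 ± 0.15, adjusted *P* = 5.4e-10), the only DEG of 20 interferon genes, while *ISG15* rose by under 2-fold (0.89 ± 0.11). Of the APOBEC3 deaminases *APOBEC3C* rose 2.1-fold and was the only DEG of 5.

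Guidance molecules gave 7 raised DEGs of 25 and a median of 0.37. *PLXNB3*, a semaphorin receptor whose annotation overlaps that of *SRPK3* on the same strand, was at 0.122, 0.154 and 0.0876 CPM in pGFP and 11.2, 10.1 and 12.7 CPM with wild type p53 (log2 fold change 6.55 ± 0.49, adjusted *P* = 4.3e-10). The ephrin ligands *EFNA1* and *EFNB1* rose 5.18- and 2.57-fold and the secreted semaphorins *SEMA3F* and *SEMA3B* 3.09- and 3.3-fold. *NTN1*, a netrin, was at 2, 1.3 and 2.91 CPM and 3.75, 3.87 and 6.05 CPM (adjusted *P* = 0.03), and lost its call without pGFP replicate 1 (adjusted *P* = 0.102), pGFP replicate 2 (0.17) or wild type replicate 3 (0.226), and with all 30 libraries (0.0706).

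The Notch and Wnt lists each held 3 raised DEGs, of 12 and of 17. In the Wnt list 1 remained a DEG in the fit of the 6 compared libraries alone and 0 where every library had to hold at least 10 reads. *JAG2*, a Notch ligand, was at 23.4, 21 and 19.9 CPM in pGFP and 126, 122 and 135 CPM with wild type p53 (log2 fold change 2.58 ± 0.21, adjusted *P* = 1.2e-09). The receptors *NOTCH1* and *NOTCH3* rose 2.2- and 4.93-fold, and the ligand *DLL1* fell by under 2-fold (-0.65 ± 0.18). *WNT4* was at 0.0611, 0.0659 and 0.0876 CPM and 2, 1.83 and 2.09 CPM (log2 fold change 4.72 ± 0.45, adjusted *P* = 2.5e-08), whereas *AXIN2*, a Wnt target and brake, fell by under 2-fold (-0.74 ± 0.15, adjusted *P* = 0.00099).

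Of 24 genes of cytoskeleton, matrix and adhesion 3 were raised DEGs, against 4.39% of all genes tested. *ACTA2* (ENSG00000107796.13, chromosome 10, 88935074 to 88991339), smooth muscle actin, was at 2.61, 2.44 and 2.58 CPM in pGFP and 22.4, 23.3 and 25.8 CPM with wild type p53 (log2 fold change 3.23 ± 0.19, adjusted *P* = 4.5e-12). It overlaps *FAS* on the opposite strand in GENCODE v44, so reads of these genes may not be told apart. *CYFIP2*, a regulator of actin assembly, rose 19-fold, and *COL4A1*, a basement membrane collagen, rose at least 10.2-fold from no read.

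Lists without a raised or lowered DEG by edgeR were glycolysis, cholesterol synthesis, the integrated stress and unfolded protein responses, heat shock, the NF-kB response, G2/M and mitosis, and ribosomal proteins. DESeq2 found no DEG in them either. The 26 tested genes of G2/M and mitosis lay between −0.21 and 0.43 with a median of −0.03, and 1 of them (*KIF20A*, 0.43 ± 0.07) and 0 were above and below pGFP at an unadjusted *P* below 0.05. In the other 6 lists those counts were 1 and 1 (glycolysis), 0 and 1 (cholesterol synthesis), 4 and 4 (stress responses), 2 and 0 (heat shock), 1 and 2 (NF-kB) and 2 and 0 (ribosomal proteins). In G1/S and replication *E2F7*, a repressor of the E2F family, was the only DEG of 22 (log2 fold change 1.11 ± 0.13, adjusted *P* = 1.1e-06). The G1 cyclin *CCNE2* fell by under 2-fold (-0.44 ± 0.10).

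Gene families were read by their symbols. Potassium channel genes held 9 raised DEGs of 57 tested (15.8%), against 4.39% of all genes. The inward rectifier *KCNJ12* was at 3.22, 2.4 and 2.72 CPM in pGFP and 15.5, 16.6 and 22.5 CPM with wild type p53. Solute carriers held 22 of 282 (7.8%), among them the zinc exporter *SLC30A1*, which rose 4.13-fold, semaphorins 3 of 19 (15.8%), adhesion receptors 2 of 16 (12.5%), KLHL genes 2 of 31 (6.45%), TRIM genes 4 of 49 (8.16%) and LINC non-coding RNAs 22 of 373 (5.9%). No serpin of 17 was a DEG by edgeR or DESeq2, with 2 above and 0 below pGFP at an unadjusted *P* below 0.05. Of 27 cytochromes P450 3 were raised DEGs, *CYP4F2*, *CYP4F3* and *CYP2S1*, each with no read in pGFP. The call of *CYP2S1* was lost in 8 alternatives (adjusted *P* of up to 0.291, without wild type replicate 3) and that of *CYP4F3* in 5 (up to 0.1, without the same library). *CYP4F2* and *CYP4F3* are close paralogues, so their reads may be shared. *CYP2S1* had 0, 2 and 7 reads with wild type p53 and no bound above 1.

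The 20 lowered DEGs were sparsely read. Of these, 11 were long non-coding RNAs. *OPN3* (ENSG00000054277.13, chromosome 1, 241590102 to 241677376), an opsin, was at 0.733, 0.879 and 1.24 CPM in pGFP and 0.259, 0.412 and 0.549 CPM with wild type p53 (log2 fold change -1.19 ± 0.24, adjusted *P* = 0.00096). *NEUROD1*, a neurogenic factor, was at 0.346, 0.242 and 0.315 CPM and 0.0707, 0.0916 and 0.089 CPM (log2 fold change -1.81 ± 0.44, adjusted *P* = 0.0068), although 1 RW mutant library, at 0.107 CPM, was also low. *WWC2-AS2*, an antisense RNA, was at 0.795, 0.615 and 0.894 CPM and 0.33, 0.389 and 0.371 CPM. Of the other named falls, *FOXD2*, *LZTS1*, *MIR93*, *SNORD14E*, ENSG00000236528, ENSG00000214770 and ENSG00000272444, each lost its call in at least 1 alternative (adjusted *P* in the closing section). Above 1 CPM no gene of 13905 fell at least 2-fold in edgeR or DESeq2, with 858 below pGFP at an unadjusted *P* below 0.05.

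The 339 falls without a fold limit were shallow, with a median log2 fold change of −0.40, and their number varied with the fit. It was 1067 with the replicate block and 1219 with the compared libraries alone, and 178, 209, 208 and 181 without wild type replicate 2, wild type replicate 3, pGFP replicate 1 and pGFP replicate 3. Of 482 tested zinc finger genes with a ZNF symbol, 86 (17.8%) fell, against 1.59% of all genes. The 86 were 25.4% of all falls, while the family was 2.26% of the genes tested. Falls were seldom called at low levels, with 29 of 7430 genes under 1 CPM and 222 of 7050 at 10 to 100 CPM. A share matched to the levels of the ZNF genes was not computed. The family's median was −0.14 and 68.5% of its members lay below 0, against 45.2% of all genes. ZNF proteins are mostly DNA-binding repressors, many of them directed at transposable elements. The falls of single members were small but even between replicates: *ZNF10* was at 16.8, 17.5 and 16.5 CPM in pGFP, 17.2, 17.7 and 17.7 CPM in RW mutant p53 and 10.1, 10.3 and 10.5 CPM in wild type p53 (log2 fold change -0.72 ± 0.11, adjusted *P* = 5.4e-05). *ZNF200* was at 29.1, 27.8 and 28.6 CPM and 21.2, 20.7 and 21.8 CPM (log2 fold change -0.42 ± 0.07, adjusted *P* = 6.2e-05). *ZNF627* was at 22.5, 20.7 and 24 CPM and 14.4, 14.8 and 13.8 CPM (log2 fold change -0.65 ± 0.11, adjusted *P* = 9.1e-05). These 3 have the smallest *P* of the falling ZNF genes and were picked after their values were seen.

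The shift was present in each wild type library. Over 479 ZNF genes read in all 9 libraries, the median log2 ratio to the pGFP mean was −0.139, −0.173 and −0.10 in the wild type libraries. It was −0.008, −0.017 and 0.034 in the pGFP libraries and −0.008, −0.03 and 0.052 in the RW mutant libraries. Over all genes the wild type values were 0.029, 0.025 and 0.004. The number of falling members rested on the fit, with 51 without wild type replicate 2, 53 without pGFP replicate 3, 166 with the replicate block and 174 with the 6 compared libraries alone. The family was then 28.7%, 29.3%, 15.6% and 14.3% of all falls. Another scaling moved the family with the rest: with DESeq2's size factors the median of all genes was −0.022 and that of the ZNF genes −0.18, and 118 of them fell. Base composition moves with the family, because the median GC content of its longest transcripts was 42.9% against 47.8% for all genes. The part of base composition in the shift was not tested. Within each class of GC content the ZNF median lay below that of all genes, at −0.138 against −0.017 below 40% GC, −0.16 against 0.011 at 40 to 45% and −0.181 against 0.024 at 45 to 50%. Above 50% GC the distance was smaller in each class. The medians were −0.027 against 0.033 at 50 to 55%, −0.066 against 0.045 at 55 to 60% and −0.027 against 0.077 above 60%. Not all members fell: 55 ZNF genes rose, 21 of them as DEGs (4.36%). *ZNF79* was at 14.3, 14.2 and 14.2 CPM in pGFP and 63.3, 59.4 and 60.7 CPM with wild type p53 (log2 fold change 2.10 ± 0.14, adjusted *P* = 2.9e-11), and *ZNF30* rose 3.04-fold.

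**Figure D2:**
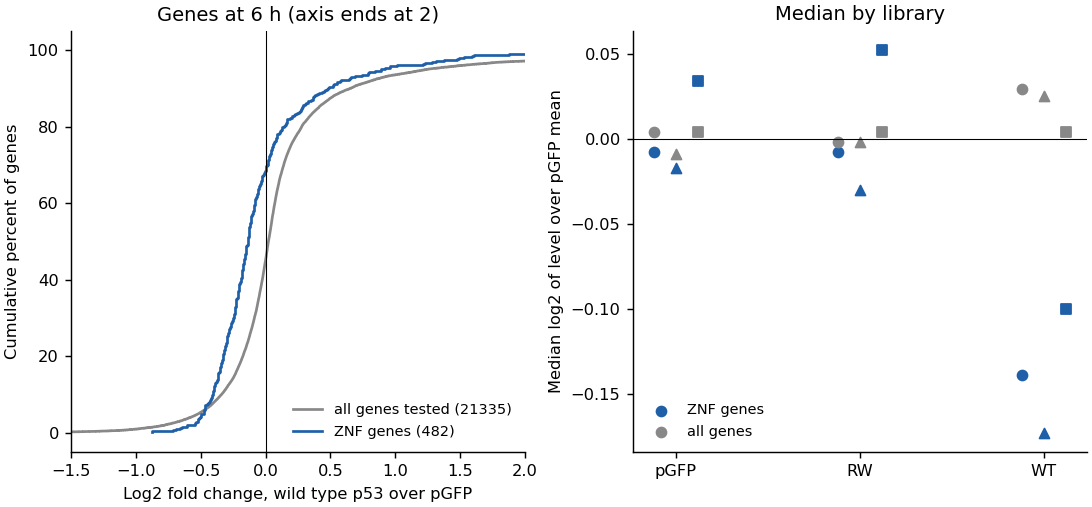
Left, the cumulative percent of genes by log2 fold change of wild type p53 over pGFP at 6 h for the 482 ZNF genes and all 21335 genes tested. Right, for each library, the median log2 ratio of its levels to the pGFP mean over ZNF genes (blue) and all genes (grey), with circle, triangle and square for replicates 1, 2 and 3. The ZNF curve is shifted to the left, and the wild type libraries alone have ZNF medians below −0.09.

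The raised DEGs differed from other genes in composition and place. Their longest transcripts had a median GC content of 55% against 47.8% for all genes tested, and the share raised was 2.04% below 40% GC and 9.93% above 60% GC. Median exonic length was 3940 bases against 3953 for all, while the median span of protein-coding genes was 23260.0 bases among the raised and 33649 among those tested. Of the 927 raised DEGs with coordinates 223 (24.1%) lay next to another raised DEG among the genes tested, and 8.49% of all genes tested did. On the opposite strand 54 (5.83%) overlapped another raised DEG, against 1.64% of all genes, and such pairs may share reads. Whether base composition, strand or shared reads had a part in these shares was not tested.

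There were 8 runs of at least 3 neighbouring raised DEGs, of which 4 are described, chosen after their values were seen. On chromosome 17 the run was *GRIN2C*, *FDXR* and *USH1G*, a scaffold of hair cells, which went from means of 0.105, 12.5 and 0.0979 CPM in pGFP to 5.34, 190.0 and 0.819 CPM. On chromosome 10 it was the monocarboxylate transporter *SLC16A12*, *PANK1* and *PANK1-AS1*, with rises of 2.13, 2.99 and 3.70 on the log2 scale. A run on chromosome 11 joined *LINC02688* with the gel-forming mucins *MUC2*, *MUC5AC* and *MUC5B*, at 0.212, 0.0636 and 0.0665 CPM with wild type p53 and no read in pGFP. Reads of these similar mucins may be shared between them. On chromosome 14 *GPR132*, *LINC02298* and *JAG2* rose together.

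The 6 h effects were set beside those at 24 h, when 1967 genes (9.22%) were raised and 425 (1.99%) lowered DEGs against the pGFP libraries of that time. The effect of wild type p53 over the pGFP libraries of its own time was called higher at 24 h in 796 genes (3.73%) and lower in 592 (2.77%) of 21335, by the interaction in the same fit. The sign is that of the difference, so a gene whose fall deepened by 24 h counts as lower. With the replicate block these counts were 2054 and 1843. Among the 937 raised DEGs the effect was higher at 24 h in 97, lower in 11 and not called different in 829. *CDKN1A* was among the higher, at 2.67 at 6 h and 3.68 at 24 h (difference 1.01 ± 0.22, adjusted *P* = 0.0061), as were *ACTA2* (1.38 ± 0.26) and *NTN1* (2.35 ± 0.45). *IL11* had the larger effect at 6 h, with 1.46 against -0.18 at 24 h (-1.65 ± 0.36, adjusted *P* = 0.0062), and *TP53INP1* was also lower at 24 h (-1.03 ± 0.27). With all 30 libraries in the fit the calls of *CDKN1A*, *ACTA2* and *TP53INP1* were lost (adjusted *P* = 0.42, 0.25 and 0.33), while those of *NTN1* and *IL11* were kept. In *BTG2* (-0.37 ± 0.22), *GDF15* (-0.53 ± 0.35) and *MDM2* (0.41 ± 0.21) the difference did not pass the test.

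**Figure D3:**
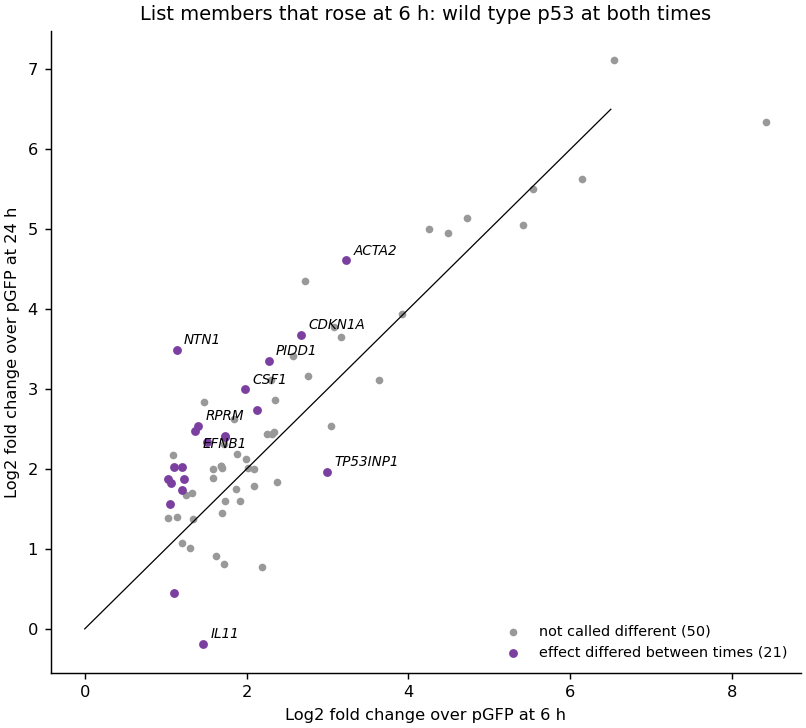
Log2 fold changes of wild type p53 over pGFP at 6 h (horizontal) and 24 h (vertical) for 71 list members raised at 6 h and read in pGFP. Purple marks the 21 whose effect differed between the times and the line marks equal effects. *NTN1*, *ACTA2* and *CDKN1A* lie above the line and *IL11* and *TP53INP1* below it.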

How the data were processed

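The deposited table holds raw counts per gene, which the authors made from single reads of ribosome-depleted stranded libraries (NextSeq 500) with STAR v2.5.3a on hg38 and featureCounts (Subread v1.5.2) on GENCODE v27. Whether counting used strand is not given in the sources used here. A deposited normalized table was not used in tests. The fit used edgeR 4.0.16 (R 4.3.3) with filterByExpr, TMM scaling and the quasi-likelihood test on group means of 28 libraries, so that all groups shared 1 estimate of spread. At 6 h 2 libraries of other groups, whose titles conflict with their other labels, were left out. The Benjamini-Hochberg adjustment covered all 21335 genes tested, with thresholds of 0.05 and 2-fold. DESeq2 1.42.0 was an alternative. Levels are CPM after TMM scaling. Genes were placed by GENCODE v44, in which 38904 of 39359 were found. Total counts were 46752114 to 71950532 per library, and read bounds cover counting error only.

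Same-numbered pGFP and wild type libraries deviated together (correlations of 0.199 to 0.464 in 3 of 3 pairs, log2 with 0.5 CPM added), so their numbers were treated as pairs in the blocked fit. On simulated data of 19500 genes edgeR recovered 178 of 200 changed genes and called 4 unchanged ones. Genes named by rank were the 10 smallest *P*, the 10 largest rises, the 10 largest bounds, the 8 largest gains in CPM and the 10 falls of smallest *P*. These ranks were taken only among DEGs whose wild type libraries all lay beyond all pGFP libraries. The DEGs of each list and family were named as well. The rule and the lists also name a few genes that are not reported here. The genes and lists were chosen with earlier results of these data known.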

Additional observations from a re-analysis of the deposited data

Results flagged for a closer look

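The effect of wild type p53 over pGFP differed between 6 h and 24 h in 24 of the genes named for their rise at 6 h, by the interaction term of the edgeR fit (adjusted *P* below 0.05 over all genes). The values that follow are log2 differences, 24 h minus 6 h. In 21 genes the effect was higher at 24 h. For arrest genes these were *CDKN1A* (1.01), *PLK2* (0.61), *RPRM* (1.14) and *ZMAT3* (0.85). For apoptosis and death receptors they were *AEN* (0.67), *BAX* (0.51), *CASP6* (0.83), *PIDD1* (1.08) and *TNFRSF10A* (0.92). For autophagy and energy sensing they were *DRAM1* (0.67) and *PRKAB1* (0.54). Among signalling and guidance genes *EPHA2* (0.64), *CSF1* (1.01), *EFNB1* (1.11) and *NTN1* (2.35) were higher at 24 h, and of the others *ACTA2* (1.38), *KCNJ12* (1.66), *KLHL21* (0.66), *TRIM35* (0.70), *NINJ1* (0.83) and *APOBEC3C* (0.75). The effect was lower at 24 h for *IL11* (-1.65), *TP53INP1* (-1.03) and *E2F7* (-0.66). Of the 24, only *EFNB1*, *IL11* and *NTN1* kept the call in all 20 fits that give this difference. With the 2 libraries of conflicting titles in the fit the others except *ZMAT3* reached adjusted *P* of 0.1 (*TNFRSF10A*) to 0.59 (*PLK2*), and *ZMAT3* reached 0.085 without wild type replicate 1 at 24 h.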

How the results depend on the processing

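The direction of the 6 h response held in every alternative run, with 439 to 1079 raised and 5 to 50 lowered DEGs. A filter of at least 10 reads in every library, which removes genes silent in pGFP, left 444 DEGs, 439 raised and 5 lowered. The lowered DEGs were 38 with the compared libraries alone, 12 with all 30 libraries and 50 with the replicate block. Leaving out 1 library gave 773 to 896 DEGs, 742 to 883 raised and 12 to 31 lowered. DEGs of the pathway lists numbered 61 to 83. The same filter of 10 reads left 5 among the other p53 effectors, 4 in guidance, 2 receptor tyrosine kinases, 1 immediate early gene and 1 long non-coding RNA. For the difference between the times, the block gave 3897 genes, 2054 higher and 1843 lower at 24 h, and the genes higher at 24 h were 495 with every gene read at least once and 529 with all 30 libraries. Without 1 library these differences were 835 to 1757, 462 to 1052 higher and 341 to 705 lower, lowest in total without pGFP replicate 1 at 24 h. The counts without wild type replicate 1 were 907 at 6 h and 888 at 24 h, and 369 genes were lower at 24 h without pGFP replicate 2 at 6 h. The block also moved the rises and falls without a fold limit (2950 and 1067) and the ZNF falls (166), and moved no other of the counts followed by over 1.5 times. Of 131 named genes followed, 116 stayed DEGs in every setting that tested them. *PML*, *ZMAT3*, *OPN3* and *WWC2-AS2* kept their adjusted *P* and came under 2-fold in some settings, at lowest 0.95, 0.96, -0.94 and -0.95 on the log2 scale. The other 11 missed the threshold in at least 1 setting, with highest adjusted *P* of 0.291 for *CYP2S1*, 0.1 for *CYP4F3*, 0.226 for *NTN1*, 0.07 for *FOXD2*, 0.178 for *LZTS1*, 0.0595 for *SNORD14E*, 0.0917 for *MIR93*, 0.0538 for *PDGFB*, 0.358 for ENSG00000272444, 0.118 for ENSG00000214770 and 0.0748 for ENSG00000236528. The cause of these changes was not tested, and genes under 1 CPM rest on few reads.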

Other observations

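Further families were picked after their values were seen, so their counts describe them and are no test. Against 4.39% of all genes tested, raised DEGs were 5 of 33 HOX genes (15.2%), which pattern the body axis, 4 of 14 SOX genes (28.6%), 3 of 8 LHX genes (37.5%) and 5 of 35 symbols beginning with FOX (14.3%), among which 1 was a lowered DEG. The SOX genes were *SOX7*, *SOX2*, *SOX21* and *SOX18*. Among matrix and surface genes they were 7 of 38 symbols beginning with COL (18.4%) and 4 of 7 mucins (57.1%). Among signalling genes they were 4 of 11 WNT ligands (36.4%), 3 of 5 NMDA receptor subunits and 4 of 9 symbols beginning with ADCY (44.4%), which include the neuropeptide gene *ADCYAP1* and its receptor.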
